A study of Drosophila melanogaster with 3 samples.

Results

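Divergent promoters, from which 2 protein-coding genes are read in opposite directions, held 695 of the 6659 reproducible binding summits of the zinc finger protein pad in adult female Drosophila melanogaster (10.4%, exact binomial 95% interval 9.71 to 11.2%). A summit, the position of highest signal within a peak as the authors' file gives it, was taken as a member when it lay within 250 bp of annotated start sites of coding genes on both strands. The members were compared with 2407 summits that had coding starts of 1 strand only in this range and with the other 3557 summits. The members fell into 675 merged regions and 675 nearest gene pairs. In 677 members the minus-strand gene started to the left of the plus-strand gene, the divergent order, and in 18 the starts were crossed, so that the 5′ ends of the genes overlapped. At 659 members 2 coding genes were in range, and at 36 more than 2.

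The samples were 3 biological replicates of 1 group, whole adult females of unknown age from a line that stably expresses pad with GFP at its C terminus, and chromatin was recovered with an antibody against GFP after sonication to a size range of 200 to 800, for which the labels give no unit. The promoter that drives the fusion is not given in the sources used here, and the peaks sum over all cell types of the fly. Peaks had been filtered by the authors by the irreproducible discovery rate (IDR), which keeps peaks whose ranks agree between replicates, and each replicate also had its own list of 30000 peaks. No read depth is given for any replicate. Peaks, genes and sequence windows are not independent replicates, and exact binomial intervals cover counting error only.

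In the compact fly genome many genes start head to head, with a short stretch of DNA between them that serves as promoter for both. Housekeeping genes are known to be frequent in such arrangements, and their promoters often carry the DNA replication-related element (DRE), Motif 1, Motif 6 or Motif 7 rather than a TATA box. The protein pad (poils au dos) is known for its repression of achaete and scute, genes that give cells a neural fate.

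The sequence between the starts is shown for 6 strong pairs of those named here that had a short stretch free of annotated exons. These are not the 6 strongest of all named pairs, and peo/CG12744, with a signal of 5908, is among those not shown. Each runs 5′ to 3′ on the plus strand of dm6 from the base after the start of the minus-strand gene to the base before the start of the plus-strand gene. Capitals mark matches on either strand to any of 9 promoter and insulator motifs or 3 words, which are given with their shares among the results, spelled out except for Motif 6 and Motif 7, longer published motifs named only.
cue/Psa, chr3L:1517272-1517499: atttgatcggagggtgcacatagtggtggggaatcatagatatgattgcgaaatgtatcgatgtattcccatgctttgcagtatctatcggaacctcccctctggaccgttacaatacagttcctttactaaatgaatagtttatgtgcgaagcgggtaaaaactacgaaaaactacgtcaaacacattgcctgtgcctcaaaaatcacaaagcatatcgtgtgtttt
Tcs5/CHMP2B, chr3L:5139396-5139618: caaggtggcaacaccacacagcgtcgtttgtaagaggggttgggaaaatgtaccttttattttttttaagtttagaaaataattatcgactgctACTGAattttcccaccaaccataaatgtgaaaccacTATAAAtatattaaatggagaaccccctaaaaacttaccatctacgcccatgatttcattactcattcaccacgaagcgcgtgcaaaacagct
CG11309/CG7632, chr3L:21304659-21304696: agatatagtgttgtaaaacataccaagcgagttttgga
Chro/Ssl1, chr3L:22878985-22879088: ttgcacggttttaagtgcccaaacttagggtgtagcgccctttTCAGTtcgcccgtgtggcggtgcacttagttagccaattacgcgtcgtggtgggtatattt
RpS27/Nup37, chr3R:25247515-25247657: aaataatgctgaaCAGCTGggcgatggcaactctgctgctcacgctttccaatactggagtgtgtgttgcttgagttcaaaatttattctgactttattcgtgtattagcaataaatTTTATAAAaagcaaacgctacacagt
Ripalpha/RpL7, chr2L:10200975-10201003: cccactccgcggccAGTGTGACCgtttgg
The stretch at cue/Psa, 228 bases with 40.8% G and C, held no match at all and the one at CG11309/CG7632, 38 bases, held none either. Only the Ripalpha/RpL7 stretch, 29 bases with 69.0% G and C, had a match to the core of Motif 1. The summit lay at base 138 of the cue/Psa stretch, at base 110 of the Tcs5/CHMP2B stretch and at base 4 of the RpS27/Nup37 stretch. At the other pairs it lay outside the stretch shown. It was 70 bp from the CG11309 start, 81 bp from the Chro start and 29 bp from the RpL7 start, so these stretches do not hold the summit.

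A further 3 stretches were chosen after their matches were seen, from pairs with the word CAACACTG (RanBP3/Rpt5 and Ttc1/CG14882) and a strong pair with the DRE (Vha55/Snx3). RanBP3/Rpt5 and Ttc1/CG14882 had IDR ranks of 1479 and 1788. Some stronger members held the word near the summit, at 2.33% of those within the 1000 strongest peaks.
RanBP3/Rpt5, chr3R:23752835-23752875: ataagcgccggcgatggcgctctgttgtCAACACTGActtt
Ttc1/CG14882, chr3R:16443008-16443206: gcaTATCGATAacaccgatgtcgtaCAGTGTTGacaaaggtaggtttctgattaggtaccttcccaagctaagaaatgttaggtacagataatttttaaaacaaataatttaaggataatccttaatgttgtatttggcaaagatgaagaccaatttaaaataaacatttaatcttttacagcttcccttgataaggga
Vha55/Snx3, chr3R:12627830-12628030: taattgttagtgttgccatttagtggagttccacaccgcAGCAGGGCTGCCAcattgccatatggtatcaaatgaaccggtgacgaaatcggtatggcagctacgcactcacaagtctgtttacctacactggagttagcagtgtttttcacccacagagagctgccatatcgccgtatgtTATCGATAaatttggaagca
At RanBP3/Rpt5 the word lay near the summit, which fell on base 19 of 41. The Ttc1/CG14882 stretch held the DRE and, on the opposite strand, the word, and the Vha55/Snx3 stretch held the DRE and Motif 7.

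Members were of middling strength. The signal that the authors give for a peak ranged from 264 to 6182 at members, with a median of 569, against a median of 498 over all IDR peaks. Its scaling is not stated, so ranks within a list are used below, where rank 1 is the strongest peak. None of the 124 strongest IDR peaks was a member, and the first, at cue/Psa, ranked 125. Members made up 86 of the 1000 strongest peaks (8.60%, exact binomial 95% interval 6.94 to 10.5%). By rank in the authors' pooled list, the share of members was 0 of 100 among the first 100 peaks, which allows up to 3.62%, then 8.0% from there to rank 500 and 14.4% at ranks 2001 to 3000, where it was highest in that list. It was 2.27% at ranks 10001 to 20000 and 0.71% at ranks 20001 to 30000. In the replicate lists the share among the first 100 peaks was 0%, 1% and 0%, and it was highest at ranks 1001 to 2000 in the mean, with 13.2% ± 2.84 there and 12.6% ± 0.611 at ranks 2001 to 3000 (SD, n = 3). From rank 100 to rank 500 the replicates were spread, with 15.8%, 5% and 7%.

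**Figure D1:**
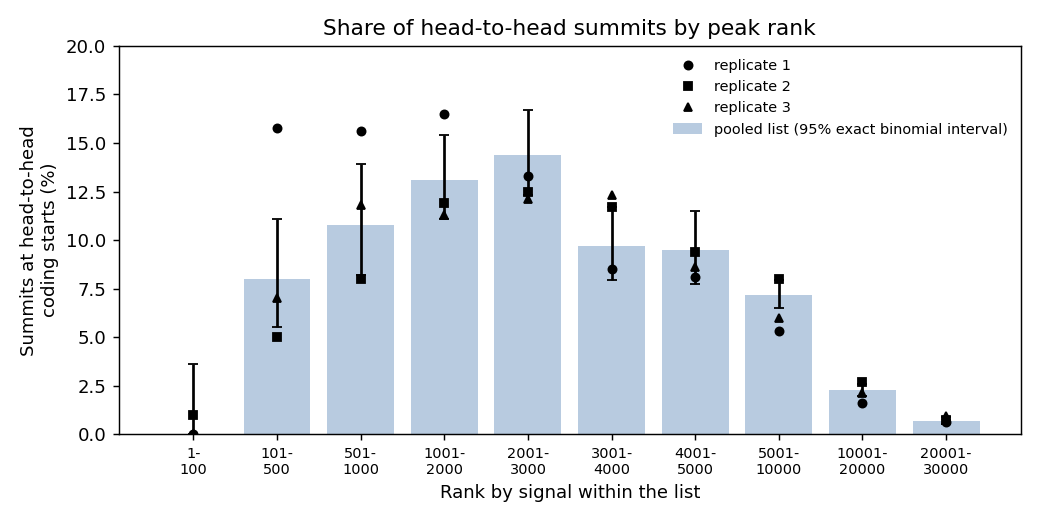
Share of peaks whose summit lay at head-to-head coding starts (%), by rank within the list; bars are the authors' pooled list with exact binomial 95% intervals and points are the replicates. The first 100 peaks held almost no such summit, and replicate 1 lies above the pooled bar from rank 100 to rank 2000.

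The 3 strongest members lay at cue/Psa, slv/sut1 and peo/CG12744. At cue/Psa (peak chr3L:1516093-1518059, signal 6182), which encode a membrane protein of the LDL receptor type and the puromycin sensitive aminopeptidase, the peak ranked 175, 124 and 117 in replicates 1, 2 and 3. The crossed pair slv/sut1, both sugar transporter genes, ranked 159, 141 and 110, with starts that overlapped by 99 bp. The peak at peo/CG12744, where peo encodes a telomere protection protein, ranked 349, 102 and 194. These 3 pairs stood apart from the next, endos/CG6650, where endos encodes an inhibitor of protein phosphatase 2A and the signal was 4064 against 5908 at peo/CG12744.

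Another 8 pairs completed the 12 strongest that were found in every replicate, with signals of 3460 to 3729. They were CG3434/CG44838, Art3/mRpS10, Tcs5/CHMP2B, CG11309/CG7632, Pdrg1/Pal1, CG5611/Mtl, CG8892/CG34126 and Chro/Ssl1. Art3 encodes an arginine methyltransferase and mRpS10 a mitochondrial ribosomal protein, and the peak (chr3R:15229316-15229766) ranked 107, 371 and 373. CHMP2B is a subunit of the ESCRT-III complex, and the peak at Tcs5/CHMP2B ranked 115, 385 and 395. Chro encodes a chromodomain protein of polytene interbands and Ssl1 a subunit of the general factor TFIIH, and the peak at this pair ranked 150, 448 and 271. In all 8 of these pairs except CG3434/CG44838, which ranked 213, 330 and 208, replicate 1 gave the highest rank. A member at the median rank, CG5776/spict (chr2L:12704388-12704626, signal 569), ranked 1887, 4253 and 3175.

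Replicate 1 stood apart at members as a whole. Of the 646 members found in every replicate, replicate 1 ranked 448 highest of the 3 (69.3%), against 941 of 2170 summits at starts of 1 strand (43.4%) and 1102 of 3229 other summits (34.1%). The median rank of the members was 2072.5, 3089.5 and 2995.5 in replicates 1, 2 and 3, against 2699.5, 2954.5 and 2835.5 for summits at starts of 1 strand. The GC content of the summit window moved with this. Among windows under 30% GC, replicate 1 ranked 76.7% of 266 members highest and 62.3% of 305 summits at starts of 1 strand, and at 40 to 50% GC 56.9% of 130 members and 36.8% of 740. The part of base composition in these ranks was not tested further, and results below are given for each replicate.

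Members were found again in the replicates about as often as other peaks. A replicate peak among the top 10000 that overlapped by at least 50% of either peak was present in every replicate for 646 of 695 members (92.9%, exact binomial 95% interval 90.8 to 94.7%), against 90.2% of summits at starts of 1 strand (88.9 to 91.3%) and 90.8% of other summits (89.8 to 91.7%). In replicates 1, 2 and 3, 680, 681 and 672 members were found, and none was absent from all 3. These shares are partly built in, since IDR chose the peaks by their replicate ranks. The summit itself was less fixed than the peak, and in all 3 replicates it met the 250 bp rule for 562 members (80.9%). The standard deviation of the 3 replicate summits had a median of 25.8 bp at members, 24.5 bp at starts of 1 strand and 24.8 bp elsewhere. The largest, 729 bp, was at Kap3/CG34348 on X, whose kinesin accessory gene Kap3 had its start 47 bp from the IDR summit. Its peaks ranked 2728, 149 and 9418, the matched peak being by far the strongest in replicate 2. A match was the strongest overlapping replicate peak, so with summits this far apart the matched peaks need not be at the same site.

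Members ranked somewhat higher than summits at starts of 1 strand, with a median IDR rank of 2903 against 3417, but by amounts that differed between replicates. In the top 5000 of replicates 1, 2 and 3 the median rank was 1974, 2568.5 and 2468 for members, against 2491, 2680 and 2593 for summits at starts of 1 strand. The mean difference was -251 ± 230 ranks (SD, n = 3; exact sign-flip permutation test, two-sided p = 0.25), so that members ranked higher in each of the 3 replicates, most of all in replicate 1. The smallest p that 3 replicates can give in this test is 0.25. Without replicate 1 the difference was -118, and with a distance of 500 bp it turned to 79. At the limit of the rule, 28 members had the farther start over 240 and up to 250 bp away, with a median IDR rank of 3703, and 43 summits just outside it, over 250 and up to 260 bp, had a median rank of 3336. The summits with no coding start in range had a median rank of 2654, 2342 and 2436.5 in the top 5000 of replicates 1, 2 and 3. Members ranked higher than these in replicate 1 only, with a mean difference of -141 ± 477 ranks (SD, n = 3).

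Binding was denser at head-to-head starts than at other coding starts. Only 525.8 kb of sequence, 0.393% of the arms, lay within 250 bp of coding starts on both strands, against 7856.4 kb near coding starts of 1 strand. IDR summits had a density of 132 per 100 kb in the first and 30.6 per 100 kb in the second, a ratio of 4.31. In the top 5000 peaks of replicates 1, 2 and 3 the density was 115.1, 98.1 and 100.8 per 100 kb, against 22.4, 22.7 and 23.2 per 100 kb. The groups did not overlap, and the ratio was 5.14, 4.33 and 4.34, a mean of 4.60 ± 0.469 (SD, n = 3). The difference in density was 81.9 ± 9.43 per 100 kb (SD, n = 3; exact sign-flip permutation test, two-sided p = 0.25, the smallest possible).

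The same difference was seen when genes were counted. The annotation held 2030 head-to-head pairs, those for which some position lies within 250 bp of both starts, with 3878 genes. An IDR summit lay within 250 bp of their own start for 1824 of these genes (47.0%, exact binomial 95% interval 45.5 to 48.6%), against 1583 of the 10067 coding genes in no such pair (15.7%, 15.0 to 16.5%). Over all 13945 coding genes the share was 24.4%. In replicates 1, 2 and 3 it was 40.5%, 35.1% and 36.4% for genes in a pair, against 11.8%, 11.7% and 11.5% for the others. A summit between paired genes counts for both, which a count of genes does not correct. The density above counts each summit once. Its head-to-head sequence has coding starts of both strands in range, against 1 strand in the other, and no correction was made for this. Of the 2030 pairs, 737 had an IDR summit near both starts and are called bound pairs below (36.3%, exact binomial 95% interval 34.2 to 38.4%). The replicates gave 31.9%, 27.4% and 27.4% (28.9% ± 2.60, SD, n = 3).

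Whether a pair was bound varied with the distance between its starts. Pairs with starts over 200 and up to 350 bp apart were bound in 372 of 749 cases (49.7%, exact binomial 95% interval 46.0 to 53.3%), those 151 to 200 bp apart in 45 of 149 (30.2%, 23.0 to 38.3%) and those 1 to 150 bp apart in 263 of 624 (42.1%, 38.2 to 46.1%). In the replicates the shares were 46.6%, 38.1% and 36.7% over 200 and up to 350 bp, 20.1%, 21.5% and 21.5% at 151 to 200 bp, and 34.3%, 29.5% and 31.9% at 1 to 150 bp. As shares of pairs, the values at 151 to 200 bp did not overlap with those of the classes on either side. The limits of these classes were not planned. The 45 pairs with a histone gene, most of them near-identical copies that can share reads, all had starts up to 200 bp apart. Without them, a choice made after seeing the data, the share at 151 to 200 bp was 34.4% (26.3 to 43.1%), with 22.9%, 24.4% and 24.4% in the replicates, and at 1 to 150 bp 43.7%.

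At the far end the share of bound pairs was 11.5% of 174 pairs at 351 to 400 bp and 3.89% of 257 at 401 to 500 bp. Part of this follows from the rule, since the stretch near both starts narrows as the starts move apart, to a mean of 125 bp at 351 to 400 bp and 53.8 bp at 401 to 500 bp. Per 100 kb of such sequence there were 245 bound pairs at 301 to 350 bp and 92.3 at 351 to 400 bp. The same density in the replicates was 245, 197 and 202 per 100 kb at 301 to 350 bp, and 111, 106 and 96.9 per 100 kb at 351 to 400 bp, without overlap. Over 200 and up to 250 bp it was 178, 150 and 135 per 100 kb, and at 151 to 200 bp 62.1, 66.3 and 66.3 per 100 kb. At 1 to 50 bp it was 67.5, 61.6 and 67.5 per 100 kb, which overlaps with the values at 151 to 200 bp. The classes between 50 and 151 bp lay above both in each replicate. By density, pairs at 151 to 200 bp were thus not set apart from the closest pairs. The density was thus highest over 200 and up to 350 bp in each replicate. Among IDR peaks it rose from 207 per 100 kb over 200 and up to 250 bp to 245 at 301 to 350 bp. The share of bound pairs fell over the same classes, from 56.3% to 43.6%. Summits lay near the midpoint at most distances, so a stretch that narrows around it raises the density by itself. The stretch was also taken from the closest starts of a pair, while a summit near any start of both genes counted. Beyond 350 bp pad was still present at many of these genes, since 52.3% of pairs at 351 to 400 bp and 51.4% at 401 to 500 bp had an IDR summit at either gene.

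**Figure D2:**
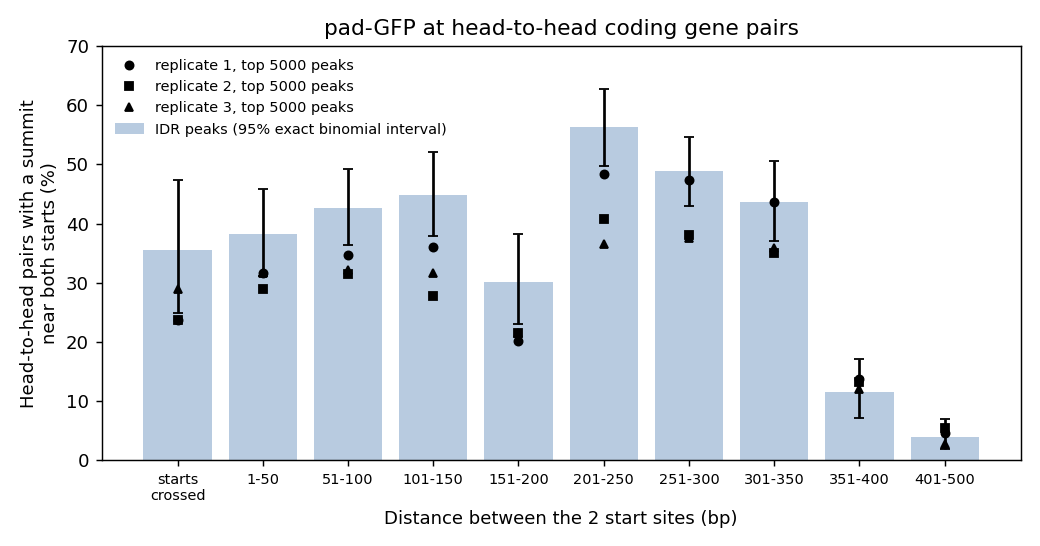
Head-to-head coding gene pairs with a summit within 250 bp of both starts (%), by the distance between the starts in bp; bars are IDR peaks with exact binomial 95% intervals and points the top 5000 peaks of each replicate. The share was highest over 200 and up to 250 bp (56.3%), dipped at 151 to 200 bp (30.2%) and was lowest at 401 to 500 bp (3.89%).

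Summits gathered near the middle of the divergent stretch. Of 677 members in divergent order, 551 had the summit between the starts (81.4%, exact binomial 95% interval 78.3 to 84.3%), against 67.1% of the positions that the rule allows. Their distance from the midpoint had a median of 36 bp (quartiles 16.5 to 67 bp), against 68 bp for positions spread evenly over the allowed stretch. With starts over 250 bp apart every allowed position lies between them, so the share is informative for closer starts only. There, 285 of 411 summits lay between the starts (69.3%), against 45.8% of allowed positions. The replicates gave 70.1%, 70.8% and 64.2%, against 47.0%, 46.1% and 45.3%, a difference of 22.2 ± 3.00 percentage points (SD, n = 3; exact sign-flip permutation test, two-sided p = 0.25, the smallest possible).

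The distance from the midpoint hardly changed with the distance between the starts. For starts up to 250 bp apart its median was 39.5, 32.25 and 48 bp in replicates 1, 2 and 3, against 91.2, 91.4 and 92.0 bp for evenly spread positions. For starts over 250 bp apart it was 36, 31.5 and 35.0 bp, against 51.2, 51.2 and 51.5 bp. In both classes every replicate lay below the even spread. By class of IDR peaks the median ran from 34.25 to 41.5 bp for starts 51 to 400 bp apart. At 351 to 400 bp it did not lie below the even spread, with 34.25 and 32.4 bp, and at 401 to 500 bp it was 15.75 bp in 12 members, where the rule allows little more. Starts 1 to 50 bp apart had 16.7% of 54 summits between the starts and a median of 46.75 bp from the midpoint, against 117 bp for the even spread. An example is mRpL23/CG9004 with starts 50 bp apart, where the summit lay 68 bp downstream of the start of the mitochondrial ribosomal protein gene mRpL23 and 118 bp from that of CG9004.

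**Figure D3:**
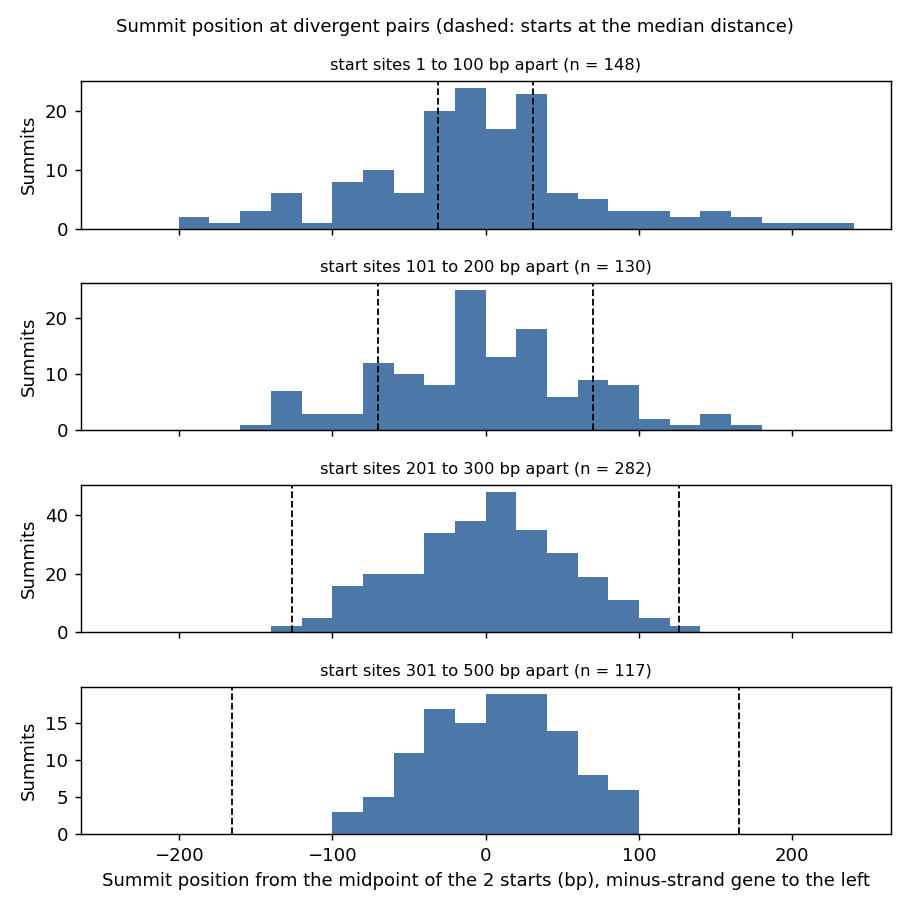
Position of member summits relative to the midpoint of both starts (bp), for 4 classes of distance between the starts; bars count summits in 20 bp steps and dashed lines mark the starts at the median distance of the class. In the class over 200 and up to 300 bp the 282 summits peak near the midpoint and thin out towards both starts.

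The sequence at members was rich in A and T. Within 50 bp of the summit, GC content averaged 34.2% ± 10.5 at members (SD over windows, n = 695), against 42.6% ± 10.5 at starts of 1 strand (n = 2407) and 42.4% ± 10.3 at other summits (n = 3557). The mean over replicates was 34.2% ± 0.683 for members and 42.4% ± 0.978 at starts of 1 strand (SD, n = 3; exact sign-flip permutation test, two-sided p = 0.25, the smallest possible). At the midpoints of pairs, bound and unbound averaged 34.0% and 33.8%, but differed in both directions within distance classes. Leaving out histone genes, bound pairs averaged 25.3% ± 7.34 and unbound pairs 29.5% ± 9.10 with starts over 200 and up to 250 bp apart (SD over pairs), and bound pairs 42.3% ± 8.94 and unbound pairs 39.6% ± 8.51 over 100 and up to 150 bp. Members with starts 1 to 150 bp apart averaged 40.4%, those over 200 and up to 350 bp 30.5% and those at 351 to 500 bp 27.8%.

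Of promoter motifs, the DRE (TATCGATA) and Motif 7 were found at more members than at other promoter summits, and the GAGA factor site (GAGAGAG) at fewer. Matches were sought on both strands within 50 bp of the summit. The DRE, bound by DREF, was at 43 of 695 members (6.19%), 3.91% of summits at starts of 1 strand and 0.281% of other summits, and at 4.48% of all 19252 coding start positions. Over the replicates the DRE share was 6.28% ± 0.296 for members and 3.77% ± 0.0549 at starts of 1 strand (SD, n = 3). Motif 7 was at 7.19% of members, 5.53% of summits at starts of 1 strand and 1.21% of other summits, with 4.63% of all coding starts. The GAGA factor site was at 5 members (0.719%), against 4.99% of summits at starts of 1 strand, 7.45% of other summits and 1.54% of all coding starts. Its share in the replicates was 0.496%, 1.36% and 0.377% for members, against 4.55%, 5.84% and 5.70% at starts of 1 strand. Each of these 3 motifs kept its direction in every replicate, and each exact sign-flip permutation test gave a two-sided p of 0.25, the smallest possible. With 12 motifs and words compared, none could pass a correction. Among the 86 members within the 1000 strongest peaks, the DRE and the GAGA factor site were at 2.33% each, against 6.19% and 0.719% over all members.

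The letters of the TATA box (TATAAA) were at 23.6% of members, 11.8% of summits at starts of 1 strand and 15.5% of all coding starts. In the replicates they were at 22.8% ± 0.174 of members and 13.8% ± 0.885 of summits at starts of 1 strand (SD, n = 3). This share moved with the distance between the starts, with 11.5% of members whose starts were 1 to 100 bp apart and 32.3% of those over 200 and up to 300 bp apart. At the midpoints of pairs it was 22.0% for bound and 22.9% for unbound pairs, a pooled value that hides opposite differences. With starts over 200 and up to 300 bp apart, 106 of 276 bound pairs (38.4%) and 69 of 253 unbound pairs (27.3%) held the letters, over 100 and up to 200 bp 10.2% of bound and 19.8% of unbound pairs, and at 1 to 100 bp 4.09% and 8.47%. A match here is a string of letters and not a placed TATA box. The remaining motifs were the core of Motif 1 (GGTCACACT) at 3.31% of members, Motif 6 at 1.15%, the E-box CAGCTG at 7.48%, the core of the CTCF site (AGGNGGCGC) at 0.288% and the Initiator (TCAGT) at 16.8%. The corresponding shares were 2.16%, 0.623%, 6.31%, 0.540% and 18.4% at starts of 1 strand, and 3.64%, 0.732%, 8.77%, 0.182% and 31.7% over all coding starts. Any of the 9 was found at 52.2% of members.

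**Figure D4:**
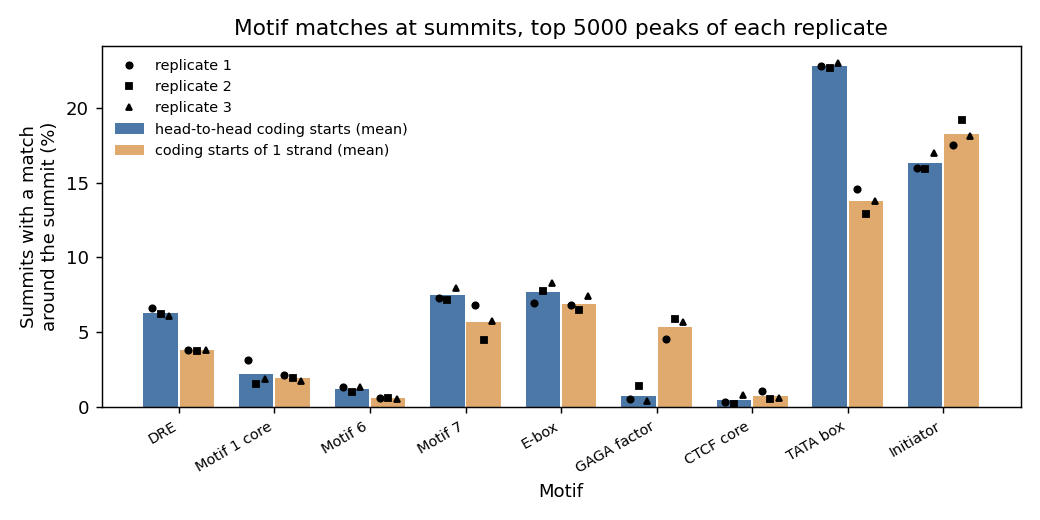
Share of summits with a motif match within 50 bp (%), for head-to-head coding starts on the left of each pair of bars and coding starts of 1 strand on the right; bars are means over 3 replicates and points the replicates. The TATA letters stood at 22.8% and 13.8% and the GAGA factor site at 0.743% and 5.36%.

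Bound and unbound pairs differed most, in percentage points, in a word to which no factor is assigned here. CAACACTG had been picked in an earlier look at these peaks on 2L and 2R, so its share and its lead over the motifs are a description only. It was at 39 members (5.61%), 5.15% of summits at starts of 1 strand and 0.872% of other summits, against 1.83% of all coding starts. At the midpoints of pairs it was found in 48 of 737 bound pairs (6.51%, exact binomial 95% interval 4.84 to 8.54%), against 10 of 1293 unbound pairs (0.773%, 0.371 to 1.42%). The DRE was at 7.06% of bound and 6.03% of unbound midpoints, and the core of Motif 1 at 2.71% and 2.63%. The E-box, at 9.63% and 6.57%, and Motif 7, at 5.83% and 3.25%, were between these in their difference. The word GAGCGAGA was at 8 bound and 0 unbound midpoints.

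Read the other way, with histone genes left out, 48 of the 58 pairs with the word at the midpoint were bound (82.8%, exact binomial 95% interval 70.6 to 91.4%), against 687 of 1927 pairs without it (35.7%, 33.5 to 37.8%). In replicates 1, 2 and 3 the share was 74.1%, 63.8% and 70.7% with the word, against 31.3%, 26.9% and 26.7% without it, with no overlap. For the DRE the IDR shares were 40% of 130 pairs with it and 36.8% of 1855 without it, and for Motif 7 51.2% of 84 and 36.4% of 1901. For the E-box they were 45.5% of 156 and 36.3% of 1829. On 3L, 3R and X, the arms that were not used to pick the word, 22 of 28 divergent pairs with it were bound (78.6%, 59.0 to 91.7%). There it was at 22 of 449 bound divergent pairs (4.90%) and 6 of 747 unbound ones (0.803%). These 3 arms also held the word at 17 of 94 bound pairs with starts 1 to 100 bp apart (18.1%), against 1 of 135 unbound pairs (0.741%). Comparisons of pairs with and without a motif were chosen after seeing the data.

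The word was found mostly at close pairs. Of 148 members with starts 1 to 100 bp apart 16.2% held it, of 130 over 100 and up to 200 bp 6.92% and of 282 over 200 and up to 300 bp 1.42%. The E-box showed the same order, with 20.3%, 9.23% and 2.48%. Of 695 members, 39 held the word, 50 Motif 7 and 43 the DRE. Both the word and Motif 7 were at 3 members, and both the word and the DRE at 6. Whether these counts differ from those of independent matches was not tested. Another pair of words picked in the same way, AGGGGAAA and GAGCGAGA, was at 0.288% and 0.576% of members, against 1.66% and 2.78% of summits at starts of 1 strand and 4.33% and 4.78% of other summits.

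Genes for cytosolic ribosomal proteins had the highest share with a summit near their own start of the lists with more than 10 paired genes. Near both starts, the share was 51.4% for them and 52.4% for the spliceosome list. Shares are read against 47.0% of all genes in a pair that had a summit near their own start and 35.9% that had one near both starts, and for genes in no pair against 15.7%. Of 37 genes for cytosolic ribosomal proteins in a pair, 32 had a summit near their own start (86.5%), and 19 near both starts (51.4%), against 42 of the 56 ribosomal protein genes in no pair (75%). In the replicates the share near both starts was 54.1%, 45.9% and 48.6%. The list was drawn up by symbol, and its paired genes with a summit include RpLP0-like, which is not itself a ribosomal protein gene. The summit was nearer to the ribosomal protein gene than to its partner in 13 of 19 divergent pairs, at a median of 64 bp from its start and 130 bp from that of the partner. The strongest was RpS27/Nup37 (chr3R:25247311-25247865, signal 2953), where RpS27 is a small subunit protein and Nup37 a nuclear pore protein. It ranked 219, 533 and 298, and its summit lay 4 bp from the RpS27 start and 140 bp from that of Nup37. At Ripalpha/RpL7, where RpL7 is a large subunit protein, the peak ranked 277, 642 and 420. At Dref/RpL13, which pairs a ribosomal protein gene with that of the DRE-binding factor, the peak ranked 1638, 1176 and 950, with the summit 27 bp from the Dref start.

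For a summit near their own start, mitochondrial ribosomal protein genes were near the shares over all coding genes, both in pairs and outside them. Of 54 such genes in a pair, 28 had a summit near their own start (51.9%) and 26 near both starts, against 3 of the 21 in no pair (14.3%), and the shares over all coding genes were 47.0% and 15.7%. The replicates gave 40.7%, 40.7% and 38.9% near both starts, against 9.52%, 14.3% and 9.52% of genes in no pair. Here the summit was nearer to the mitochondrial gene in 6 of 26 pairs and to the partner in 20, at medians of 129.5 and 91.5 bp. After Art3/mRpS10 the strongest was mRpL23/CG9004 (signal 2614), which ranked 226, 591 and 575.

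The other lists of more than 10 paired genes, histones and receptors aside, ranged from 37.5% (proteasome) to 63.6% (translation factors) of paired genes with a summit near their own start. For oxidative phosphorylation 22 of 42 genes in a pair had a summit near their own start (52.4%), against 11 of 49 in no pair (22.4%), with the Cchl/ND-42 and COX6B/CG33932 pairs strongest. For aminoacyl-tRNA synthetases it was 13 of 21, against 0 of 12, and for nuclear pore genes 10 of 19, against 0 of 8, numbers of unpaired genes too small to set apart from the 15.7% over all. The nuclear pore list was drawn up by symbol, and its paired genes with a summit include Nph, which is not a nuclear pore gene. SerRS/CG17260, with starts 8 bp apart, ranked 313, 764 and 409, and WRNexo/Nup43, with starts 476 bp apart, ranked 300, 319 and 169. For the proteasome the counts were 9 of 24 and 4 of 24, for Mediator 9 of 19 and 1 of 10, for RNA polymerase subunits 8 of 19 and 1 of 11, for the V-ATPase 7 of 13 and 6 of 20, for the spliceosome 11 of 21 and 4 of 11, and for DNA replication 9 of 17 and 5 of 16, in each case for genes in a pair and then for genes in no pair.

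Among their strongest pairs, 140up/Polr2B, with the gene of the second largest subunit of RNA polymerase II, ranked 328, 1048 and 637, and dup/SRPK, with the replication licensing gene dup, ranked 394, 1146 and 714. Translation factors had 14 of 22 paired genes with a summit near their own start, against 16 of 32 in no pair, and eIF4EHP/CG18428, where eIF4EHP binds the mRNA cap and represses translation, ranked 220, 391 and 384. Cyclins and cyclin-dependent kinases had 4 of 7, against 5 of 13, and chaperonin subunits 1 of 4, against 2 of 4, numbers too small to compare.

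Histone and chemosensory receptor genes had few or no summits. Of 87 histone genes in a pair 2 had a summit near both starts, both of them variants, His2Av with ball (ranks 1969, 2538 and 2452) and His3.3A with CG14036, found in replicate 2 only. For the repeated histone genes, a missing summit cannot be read as missing binding, since the treatment of reads shared between copies is not given in the sources used here. None of 16 paired chemosensory receptor genes (exact binomial 95% interval up to 20.6%) and none of 163 unpaired ones had a summit near the start.

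**Figure D5:**
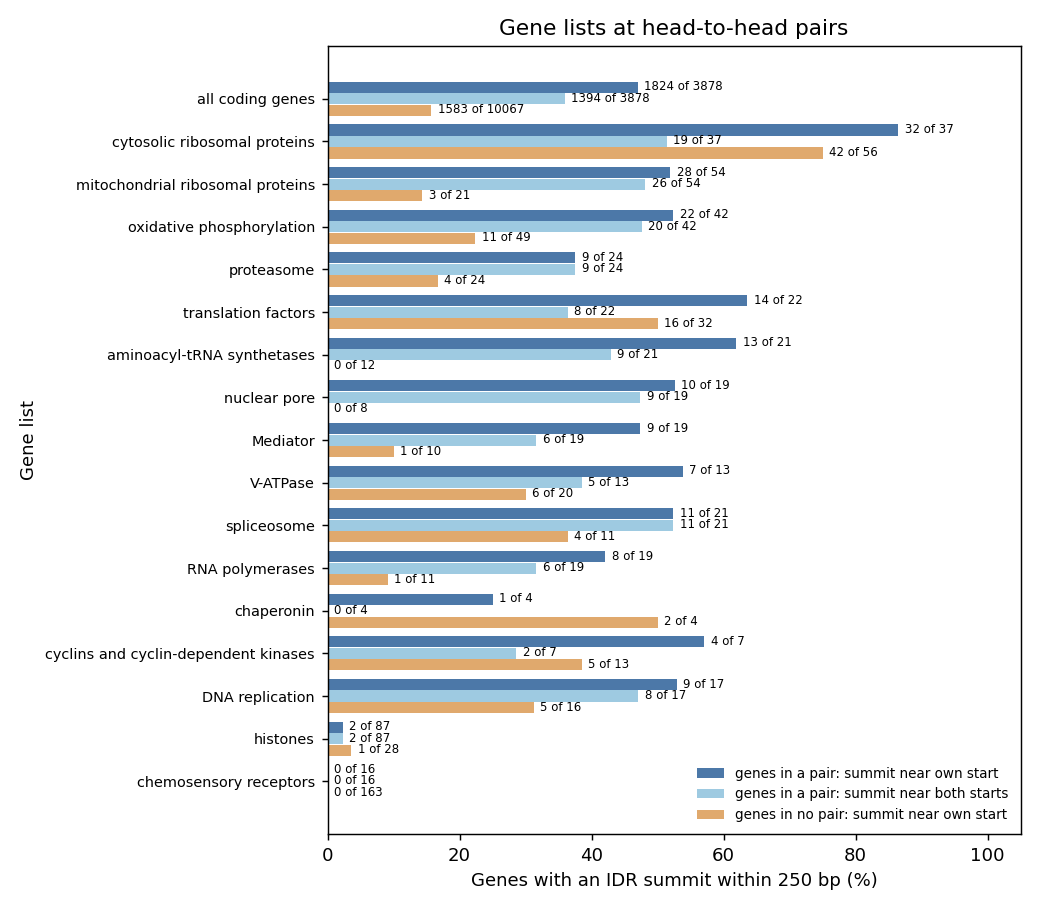
Share of genes with an IDR summit within 250 bp (%), for each gene list and for all coding genes: genes in a head-to-head pair near their own start (top bar), the same genes near both starts (middle bar) and genes in no pair near their own start (bottom bar), with counts beside the bars. Cytosolic ribosomal protein genes reach 86.5% in pairs and 75% in no pair, against 47.0% and 15.7% over all coding genes.

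Members made up 10.2% (2R) to 12.8% (3R) of IDR peaks on the large autosome arms and 6.53% on X (94 of 1440, exact binomial 95% interval 5.31 to 7.93%), and 1 of 29 peaks on chromosome 4. The share of pairs that were bound was 33.9% of 295 on X, against 34.8% to 40.2% on the 4 large autosome arms, so the lower share of members on X was not matched by a like difference in pairs. The locus with most coding genes in range of a single summit, 10, was that of pre-mod(mdg4)-E and pre-mod(mdg4)-Y (chr3R:21365200-21365662, IDR rank 666), where many trans-spliced exon sets of mod(mdg4) are annotated as genes of their own.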

How the data were processed

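ChIP-seq of pad-GFP had been deposited for 3 replicates as peak lists on dm6, Release 6 of the fly assembly. Each list deposited by the authors gives, per peak, a signal value of unstated scaling, a −log10 q-value, which was not used, and the summit. Per the deposited notes on derived files, every replicate and their pool had 30000 regions called against a control alignment, of which 6659 passed IDR. The aligner is not given in the sources used here, nor is the peak caller. Read depth is unknown for all replicates, and no interval that needs it was computed.

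Start sites came from Ensembl release 115 and sequence from the RefSeq copy of the same assembly, for the large arms and chromosome 4. Coordinates are 1-based. Replicates were compared over their top 5000 peaks, by mean, SD and an exact sign-flip permutation test, and members were sought in the top 10000. The classification, matching and motif search were tested on simulated data. The members, the 16 gene lists, drawn up by gene symbol, and the motifs were chosen with earlier results of these data known. A list of tRNA and rRNA processing genes that had been planned was not drawn up. Pairs named are the 12 members of highest signal found in every replicate, the strongest of each list, and the members at the median rank, with crossed starts and with the widest replicate summits. Python 3.11.15, numpy 2.4.6, pandas 2.3.3, scipy 1.17.1 and matplotlib 3.10.9 were used.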

Additional observations from a re-analysis of the deposited data

How the results depend on the processing

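No replicate block between groups could be fitted because all replicates belong to 1 group; summit classes were compared within each replicate. With a distance of 100 bp there were 153 members, 20% of pairs were bound and 71.8% of divergent summits lay between the starts. With 500 bp there were 1210 members, 41.5% of pairs were bound, the density ratio was 3.70, and the difference in median rank from summits at starts of 1 strand turned from -251 to 79; the cause was not tested. Among the 1000 strongest peaks 86 were members, 5.37% of pairs were bound and 57.0% of members held any of the 9 motifs, and within 100 bp of the summit, in place of 50 bp, 77.7% did. With 1 summit per merged region the density ratio was 4.79, and by the top 5000 peaks of each replicate 28.9% of pairs were bound. Searching the top 5000 of each replicate found 62.9% of members in every one, and searching all 30000 found 97.7%. Leaving out each replicate in turn gave 94.8 to 95.8% found in the others, a density ratio of 4.33 to 4.46, 34.5 to 35.0% of pairs bound, 80.7 to 81.6% of summits between the starts, 52.7% of members with a motif, and a rank difference of -118 (without replicate 1) to -321. Without histone genes, a choice made after seeing the data, 37.0% of pairs were bound. Of the shares of single motifs and words under other settings, 68 moved by less than their interval and 16 by more. Among the 1000 strongest peaks the DRE, the GAGA factor site and CAACACTG were each at 2.33% of members, against 6.19%, 0.719% and 5.61% over all members. Splits by base composition, by own start and by allowed sequence were also added after seeing the data. Unknown read depth limits all comparisons of weak peaks.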
